A study of Mus musculus with 2 samples.

Results

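The nuclear genes of respiratory complex I were examined in single cells sorted as cones from a mouse cone dystrophy. Members were all gene symbols beginning with Nduf in the deposited count table, which gave 45 of 17774 deposited genes, and all 45 were among the 15947 genes that had a count in at least 3 cells. They comprised 7 core subunits, 9 accessory subunits of the peripheral arm, 19 accessory subunits of the membrane arm, the acyl carrier Ndufab1, Ndufa4 and 8 assembly factors.

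Complex I (NADH:ubiquinone oxidoreductase) oxidizes NADH in the mitochondrial matrix, passes the electrons to ubiquinone and pumps protons across the inner membrane. Its peripheral arm holds the flavin and the iron-sulfur clusters, its membrane arm pumps protons, and its subunits come from both the nuclear and the mitochondrial genomes. Photoreceptors pack mitochondria into the inner segment and spend much of their energy on ion pumping and outer segment renewal.

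Both libraries came from Pde6c.GFP mice, that is Pde6c cpfl1 animals of the C57BL/6 strain crossed with Chrnb4.eGFP, in which the Chrnb4 promoter drives the fluorescent protein used to sort the cells. Retinas were taken at postnatal day (P) 24 from uninjected mice, or from mice that had received 1 intravitreal injection of 10 µM GSK-J4, a histone demethylase inhibitor, at P14. All cells therefore carried the cpfl1 allele, and the comparison was between cells sorted as cones without and with treatment. Each condition was 1 plate with 1 cell per well and 1 library, with no vehicle-injected library in the comparison, so GSK-J4, the injection, the plate and the library cannot be told apart. The labels give P24 for both, but cell names of the treated plate hold the word adult where those of the uninjected plate hold P24. The labels do not explain this, so any difference in age cannot be told apart from these either.

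After filtering, 82 uninjected and 64 GSK-J4-treated cells remained, with medians of 8118 and 2336 counts per cell and totals of 1113424 and 208578 counts. All 11 cone marker genes had counts in the uninjected library and summed to 2.59% of its counts. In the library labelled GSK-J4-treated the cone markers summed to 0.213%, and 5 of the 11 (Opn1sw, Gngt2, Cngb3, Pde6c and Guca1a) were at 0. The 11 rod markers summed to 0.363% and 0.0216%, with Gngt1 and Nr2e3 at 0 in the treated library, and the 8 Müller glia markers to 0.111% and 0.0316%. The median share of mitochondrial counts per cell was 0.952% in uninjected and 0.0146% in treated cells. Fewer cells of a type and less RNA per cell could not be told apart in summed counts, and the part of depth, marker content or RNA quality in the results on complex I was not tested.

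Nuclear complex I genes were abundant in uninjected cones and rare in the treated library. The 45 genes summed to 19401 counts in uninjected cells, which was 1.74% of the library (95% exact interval 1.72 to 1.77), and to 138 counts in treated cells, which was 0.0662% (0.0556 to 0.0782). The summed share was thus 26.3-fold lower in the treated library (95% interval 22.3 to 31.4). These intervals, and all others on counts, take the counts as independent draws within a library. Clumping in single cells is not covered, and 6 pairs of a gene and a cell held 88 of the 138 treated counts. None of the intervals given covers spread between libraries. With 1 library a condition no test between conditions was possible.

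The difference was seen across cells and not in a few of them. The share of a cell's counts on the 45 genes ranged from 0.229% to 5.03% in uninjected cells, with a median of 1.5%. In treated cells it ranged from 0% to 0.505%, with a median of 0%, and 34 of the 64 cells had no count on any of the 45 genes. The ranges overlapped at their ends, since 4 treated cells lay above the lowest uninjected cell and 3 uninjected cells lay below the highest treated cell. A median of 26 of the 45 genes was detected in an uninjected cell (range 2 to 41), against a median of 0 in a treated cell (range 0 to 3).

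**Figure D1:**
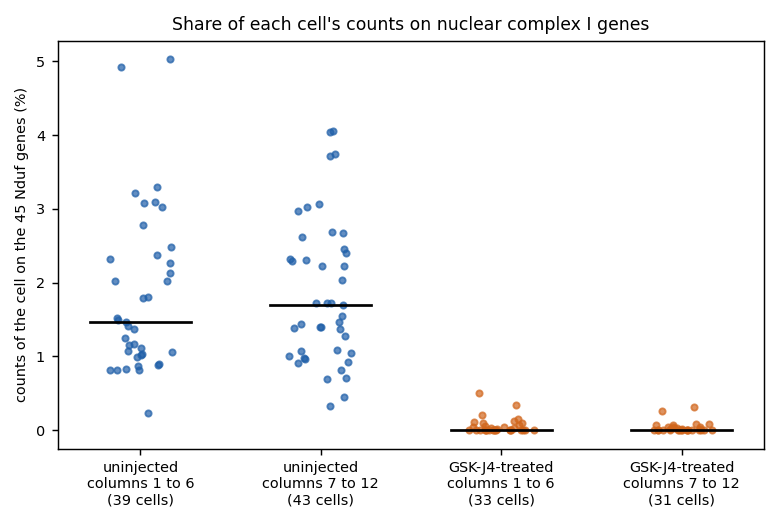
Each point is a cell, the vertical axis is the percentage of that cell's counts on the 45 Nduf genes, and the columns separate the libraries and the well columns of each plate, with bars at the medians. Uninjected cells centred on 1.47% and 1.69% on the 2 sides of their plate, and treated cells on 0% on both.

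Gene by gene, log-folds were computed as the natural logarithm of the mean scaled count plus 1 in treated cells minus the same in uninjected cells, with counts scaled to 10000 per cell, and a gene was called lower or higher beyond 0.3. Of the 45 genes 41 were lower in the treated library and 0 were higher, whereas 24% of the 7682 genes tested (detected in 10% or more of the cells of a library) were lower and 20.4% were higher. All 45 log-folds were below 0, with a median of -1.10, against a median of -0.005 over the 7682 genes. Among genes detected in at least 25% of all cells 44.3% were lower, and all 32 members in that set were lower. No member was found in more than 10.9% of treated cells, so these 32 reached 25% mainly through the uninjected library. The filter thus favoured a lower call. Of the 2643 genes in at least 25% of uninjected cells, 1368 were lower. No count at all was found in the treated library for 22 members, 51.2% of the 43 tested, against 12.3% of the 7682 genes. Genes that passed the filter in the treated library cannot be at 0 there. Of the 2643 genes in at least 25% of uninjected cells, 445 had no treated count. All members but Ndufaf4 and Ndufaf7 passed the filter of 10% of cells. They passed it in the uninjected library, and only Ndufv3 also passed it in the treated library.

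Ndufs8, which carries iron-sulfur clusters between the flavin and the quinone site, had counts per uninjected cell from 0 to 180 with a median of 1, which summed to 584 over 53.7% of cells. No treated cell had a count, and 0 of 64 cells allows up to 4.69% of cells with a count (3 cells), or 5.60% as the Clopper-Pearson upper bound. Against a limit of 3 counts for the whole treated library, its summed level was at least 36.5-fold lower, and the log-fold was -1.60. The exact Poisson interval for a count of 0 reaches 3.69 counts, so this and the later folds given as at least would be smaller there. They also take counts as independent, while a single treated cell held up to 29 counts of another member. Ndufv1, which binds NADH and the flavin, had 557 counts and 0, and was at least 34.8-fold lower. Ndufv2, its iron-sulfur partner, had 217 counts in 74.4% of uninjected cells and 1 count in treated cells, a ratio of 40.7 (7.22 to 1613). Each of these genes was found in most uninjected cells and in at most 1 treated cell.

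Other core genes had more treated counts. Ndufs3 had 262 counts in uninjected cells and 18 in treated cells, a 2.73-fold lower summed level (1.69 to 4.67), but 16 of the 18 came from the cell of well F05. Ndufs7, which holds the last cluster before ubiquinone, had 56 counts against 2. Ndufs1, the largest subunit of the peripheral arm, had 61 against 4 and was the core gene that did not pass the limit, with a log-fold of -0.20. Summed over the 7 genes, core counts were 2555 in uninjected and 25 in treated cells, a 19.1-fold lower share (12.9 to 29.6), and the median log-fold was -1.15.

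Accessory subunits, which surround the core and stabilize it, held most of the counts. The 9 genes of the peripheral arm summed to 7918 counts in uninjected cells and 37 in treated cells, a 40.1-fold lower share (29.1 to 57.0), and all 9 were lower beyond the limit with a median log-fold of -1.88. Ndufa5 had the most counts of any member, 2157 over 92.7% of uninjected cells, from 0 to 270 per cell with a median of 7.5. It had none in treated cells, so its summed level was at least 135-fold lower at the limit of 3 counts. Its log-fold of -2.92 was the lowest of the 45.

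Per kb of exon sequence, the highest uninjected levels were those of Ndufa2 (32.5 counts per 10000 counts and kb), Ndufa5 (18.8) and Ndufa4 (11.5), although tag counts need not scale with length. Ndufa2 and Ndufa12 likewise had no treated count. Ndufa2 had 2067 counts in uninjected cells, up to 299 in a cell, and was at least 129-fold lower in the treated library. Ndufa12, a paralog of the assembly factor Ndufaf2, had 1418 counts and was at least 88.5-fold lower. Ndufa9, another subunit near the junction of the arms, had 460 counts and was at least 28.7-fold lower.

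Ndufv3 was the member found in the most treated cells. It had 841 counts over 92.7% of uninjected cells (84.8 to 97.3, Clopper-Pearson) and 7 counts over 10.9% of treated cells (4.51 to 21.2), each of them a single count in a separate cell. Its summed level was 22.5-fold lower (10.9 to 56.2) and its log-fold was -1.88. Ndufs6, which carries a zinc site, had 420 counts in uninjected cells and 15 in treated cells, all 15 in the cell of well D06. Ndufs4, an accessory subunit whose loss causes complex I deficiency, had 126 counts and 12, and 11 of the 12 lay in that same cell.

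All 19 membrane arm accessory genes were lower beyond the limit, with a median log-fold of -1.06, and they summed to 6320 counts against 68, a 17.4-fold lower share (13.7 to 22.5). Ndufb11, an X-linked subunit of the distal arm, had 912 counts in uninjected cells and was at least 56.9-fold lower. Ndufc1 had 886 counts and was at least 55.3-fold lower, Ndufb9 had 861 counts and was at least 53.8-fold lower, and Ndufb4 had 563 counts and was at least 35.2-fold lower. None of these genes had a treated count.

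Ndufc2 had the most treated counts of any member. It had 148 counts over 53.7% of uninjected cells and 32 counts over 6.25% of treated cells, and its log-fold was -0.70. On summed counts the ratio of uninjected to treated was 0.866 (0.588 to 1.31), so the direction turned, with a log-fold of 0.084. The treated cell of well D07 held 29 of the 32 counts. Ndufa3 had 206 counts in uninjected cells and 11 in treated cells, 9 of them in well G07. Ndufa11 had 368 and 9, of which 8 were in well B02, and Ndufb2 had 142 and 4, each in a separate cell.

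Ndufab1, the mitochondrial acyl carrier protein that binds complex I and also serves lipoate synthesis, had 192 counts in uninjected cells and none in treated cells, with a log-fold of -0.91. Ndufa4, first purified with complex I and now assigned to cytochrome c oxidase, was among the most abundant members. It had 1764 counts over 89.0% of uninjected cells, up to 198 in a cell, and 0 in treated cells, so that its summed level was at least 110-fold lower and its log-fold was -2.84.

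The 8 assembly factors, which build the complex and are not part of it, summed to 652 counts in uninjected and 8 in treated cells, a 15.3-fold lower share (7.70 to 35.5), and 5 of the 8 were lower beyond the limit with a median log-fold of -0.35. Ndufaf8 had 328 counts and Ndufaf5, which hydroxylates an arginine of Ndufs7, had 144, and neither had a treated count. Their log-folds were -1.34 and -1.05.

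The other assembly factors were rare. Ndufaf3, Ndufaf1 and Ndufaf2 had 83, 32 and 27 counts in uninjected cells and 0 in treated cells, with log-folds of -0.45, -0.33 and -0.37. Ndufaf6 had 26 counts against 5, Ndufaf4 7 against 1, and Ndufaf7, a methyltransferase, 5 against 2. The last 3 did not pass the limit, and their summed ratios of 0.974 (0.368 to 3.25), 1.31 (0.168 to 59.1) and 0.468 (0.077 to 4.92) had intervals that included 1.

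**Figure D2:**
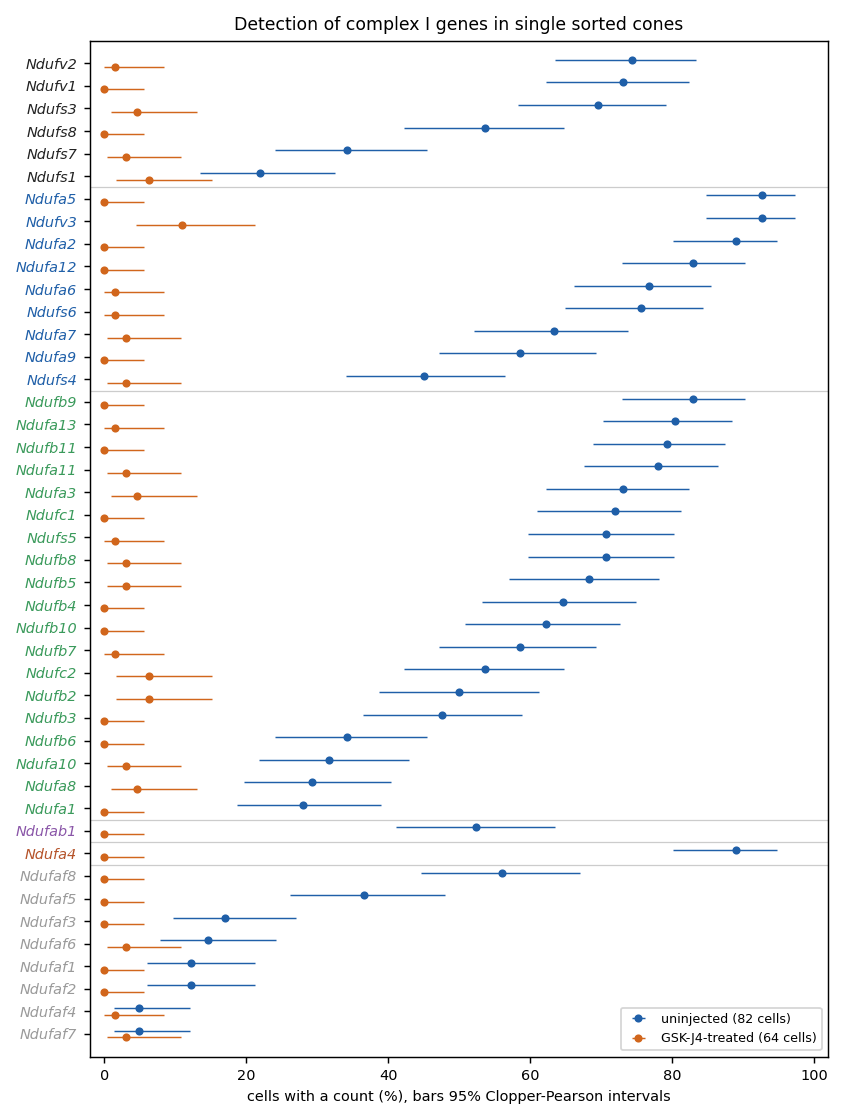
The horizontal axis is the percentage of cells with at least 1 count, with 95% Clopper-Pearson intervals, for 44 of the 45 genes in 82 uninjected (blue) and 64 GSK-J4-treated (orange) cells, grouped by role from core subunits (top) to assembly factors (bottom). Uninjected shares ran from 4.88% to 92.7% and treated shares from 0% to 10.9%.

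The counts that remained in the treated library were concentrated. They formed 53 pairs of a gene and a cell, of which 46 were a single count. The 6 pairs with 8 or more counts held 88 of the 138 counts (63.8%), and without them 0.0240% of the library lay on the 45 genes. These pairs were Ndufc2 in well D07, Ndufs3 in F05, Ndufs6 and Ndufs4 in D06, Ndufa3 in G07 and Ndufa11 in B02. Single counts made up 86.8% of treated pairs and 38.1% of the 2065 uninjected pairs.

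Olfactory and vomeronasal receptor genes, which cones are not known to use, gave a level for comparison, although some of them were seen in many cells (up to 87.8% of uninjected and 70.3% of treated cells). The median over 396 such genes of the share of cells with a count was 3.66% in uninjected and 3.13% in treated cells, at median depths of 8118 and 2336 counts. Over the 45 complex I genes the same median was 62.2% in uninjected and 1.56% in treated cells, so the median in the treated library was not above that of the receptor genes. Thinned to 867 counts per cell, which left out 1 uninjected and 14 treated cells, the expected share of cells with a count was 58.3% against 0% for Ndufa5 and 44.6% against 3.55% for Ndufv3. These are 2 of the 45 genes at 1 depth, and they were the members found in the most uninjected cells (92.7%). For some rarer members the shares lay closer, with 8.53% against 3.06% for Ndufs4 and 0.905% against 0.999% for Ndufaf7. The part of depth in the difference was not tested.

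The remainder of the respiratory chain was examined for context. The 7 mitochondrially encoded subunits of complex I summed to 6780 counts (0.609%) in uninjected cells and 324 (0.155%) in treated cells, a 3.92-fold lower share (3.51 to 4.40), and all 7 were lower beyond the limit with a median log-fold of -1.16. Of the 2643 genes in at least 25% of uninjected cells, 1368 were lower. mt-Nd1 had the most counts, 2608 over all uninjected cells and 140 over 18.8% of treated cells. mt-Nd3 had 608 counts and 0. The fold depended on the wells. The share was 10.5-fold lower in columns 1 to 6 (8.07 to 13.9) and 2.45-fold lower in columns 7 to 12 (2.16 to 2.79), where the 45 nuclear genes were 20.8-fold (16.5 to 26.6) and 32.6-fold lower (25.6 to 42.1). The treated cell of well D11 held 169 of the 324 treated counts, 72 of them on mt-Nd1, and without it, an alternative chosen after the data were seen, the share was 7.59-fold lower (6.47 to 8.96). The difference between the lists was not tested.

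Complex I assembly factors with other symbols went both ways. Of 10 such genes 2 were lower and 1 was higher beyond the limit, where 24% and 20.4% of the 7682 genes tested were. Their median log-fold was -0.063. Tmem126a had 105 counts against 5 and Timmdc1 28 against 0, while Nubpl had 3 against 5. These genes were rare in both libraries, with 242 and 26 counts in all.

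Nuclear genes of the other complexes were examined in the same way. In complex III 8 of 9 genes were lower (median log-fold -1.12), in complex IV 12 of 14 (-1.62) and in complex V 15 of 15 (-1.12). Of all 7682 genes tested 24% were lower, and 1368 of the 2643 genes in at least 25% of uninjected cells. In complex II, succinate dehydrogenase, 1 of 4 genes was lower and the median log-fold was -0.091, with all 4 below 0. Its 211 counts in uninjected and 13 in treated cells gave a 3.04-fold lower share (1.74 to 5.81), where the pseudocount of 1 holds the log-folds of such rare genes near 0.

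Members were short genes. Their median genomic span was 8.38 kb, against 26.7 kb over the 7605 tested genes with a span, and 39 of the 45 were at or below that median. Across the tested genes shorter genes had lower log-folds, with medians of -0.12 at or below the median span and 0.094 above it. Spearman's rho of log-fold with span was 0.325 across genes, which are not independent replicates. The short members had a median log-fold of -1.15, and the part of gene length in their difference was not tested.

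Within the uninjected library, cells were compared between well columns 1 to 6 (39 cells) and 7 to 12 (43 cells), since these sides of the plate differed in many genes. The sides differed in total counts by little (546722 and 566702), and what distinguished them is not given by the labels, so position and any difference in handling or origin cannot be told apart. Cone markers summed to 2.48% and 2.69% on the sides, rod markers to 0.429% and 0.30%, and Müller glia markers to 0.136% and 0.0879%. Their part in the differences between sides was not tested.

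The total devoted to complex I was similar on both sides, while single members differed, as many other genes did. The 45 genes summed to 1.70% of counts in columns 1 to 6 and 1.79% in columns 7 to 12, a ratio of 1.06 (1.03 to 1.09). Medians per cell were 1.47% and 1.69%, and ranges were 0.229% to 5.03% and 0.324% to 4.05%. Yet 10 members were higher in columns 1 to 6 beyond 0.3, where 15.9% of 8823 genes were, and 16 were higher in columns 7 to 12, where 14.6% were. Split genes of this kind were common among detected genes, since 49.1% of the 2643 genes found in at least 25% of uninjected cells passed the limit on either side, against 22 of the 38 members in that set (57.9%). A share so near the background is no result about complex I as a group, and the values that follow describe single members.

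**Figure D3:**
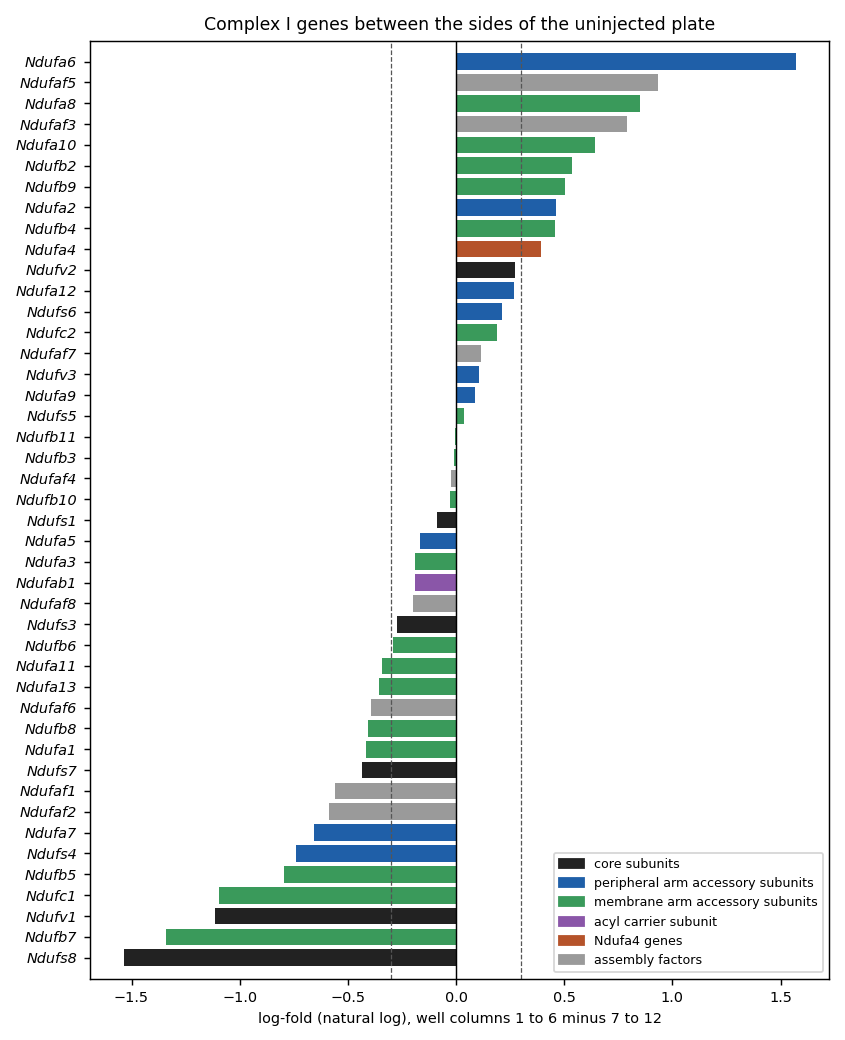
Bars give the log-fold of 44 of the 45 genes between well columns 1 to 6 and 7 to 12 of the uninjected plate (natural logarithm, positive where columns 1 to 6 were higher), coloured by role, with dashed lines at the limit of 0.3. Values ran from -1.54 for Ndufs8 to 1.57 for Ndufa6.

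Among core subunits 4 of 7 were higher in columns 7 to 12 and 0 in columns 1 to 6. Of the 2643 genes in at least 25% of uninjected cells, 656 and 643 were. So few core genes give no result about the core as a group. Core counts summed to 0.144% of the total in columns 1 to 6 and 0.312% in columns 7 to 12, a 2.17-fold difference (1.99 to 2.36). Ndufs8 had 41 counts over 28.2% of cells in columns 1 to 6 and 543 counts over 76.7% of cells in columns 7 to 12, which was 12.8-fold more (9.29 to 18). Ndufv1 had 125 and 432 counts over 53.8% and 90.7% of cells, 3.33-fold more (2.73 to 4.10). Without these genes the other 5 core members had 621 and 793 counts, a ratio of 1.23 (1.11 to 1.37), a value computed after these results were seen.

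Peripheral arm accessory genes leaned the other way in their sum, which was 0.810% in columns 1 to 6 and 0.616% in columns 7 to 12, a 1.31-fold difference (1.26 to 1.37). Ndufa2 contributed most to it, with 1353 and 714 counts. Ndufa7 and Ndufs4 went against it, with 38 and 149 counts and with 26 and 100 counts. Membrane arm accessory genes were higher in columns 7 to 12 in their sum, 0.652% against 0.480%. Of these 19 genes 5 were higher in columns 1 to 6 and 7 in columns 7 to 12. Of the 2643 genes in at least 25% of uninjected cells, 643 and 656 were.

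**Figure D4:**
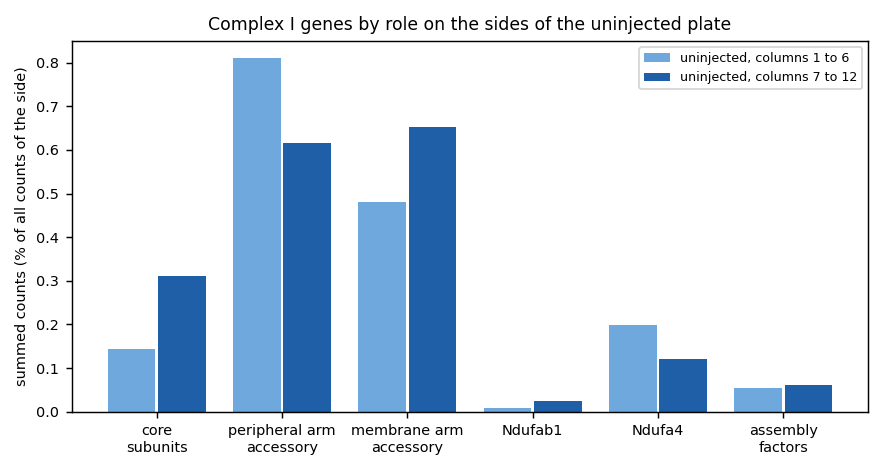
Bars give the summed counts of each role as a percentage of all counts in well columns 1 to 6 (light) and 7 to 12 (dark) of the uninjected plate, without error bars since there is 1 plate. Core subunits were at 0.144% and 0.312%, peripheral arm accessory subunits at 0.810% and 0.616%, and Ndufa4 at 0.198% and 0.120%.

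Several membrane arm genes differed by severalfold. Ndufc1 had 101 counts in columns 1 to 6 and 785 in columns 7 to 12, 7.50-fold more (6.09 to 9.32). Ndufb7 had 34 and 251 counts, 7.12-fold more (4.96 to 10.5), and Ndufb5 71 and 217, 2.95-fold more (2.25 to 3.91). In the other direction Ndufa8, a membrane arm subunit of the intermembrane space, had 61 counts over 22 of 39 cells in columns 1 to 6 and 2 counts over 2 of 43 cells in columns 7 to 12. Ndufa10 had 47 and 10 counts, and Ndufb2 had 101 and 41.

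Ndufa8 was the single member whose share of cells with a count differed by at least 50 percentage points, 51.8 points higher in columns 1 to 6, where 0.329% of the 8823 genes met that rule. No member met it in the direction of columns 7 to 12, where 0.295% of genes did. At 867 counts per cell the expected shares for Ndufa8 were 11.6% and 0.782%.

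Ndufa6 had the highest log-fold in favour of columns 1 to 6, 1.57, but this rested largely on a single cell. Of its 170 counts there, 40 came from the cell of well D05 with 1260 counts in all, where the median cell of that side had 8819. Without that cell, an alternative chosen after the data were seen, the log-fold was 0.54.

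Among the 8 assembly factors 3 were counted on 1 side only. The share of all genes at 0 on 1 side is not given here, and these 3 genes were rare. Their split is thus no result about assembly factors as a group. Ndufaf3 had 83 counts over 14 of 39 cells in columns 1 to 6 and 0 over 43 cells in columns 7 to 12, at least 28.7-fold less at a limit of 3 counts. However, 57 of the 83 counts were in 1 cell, so the bound rests largely on that cell. Ndufaf1 had 0 counts in columns 1 to 6 and 32 over 10 cells in columns 7 to 12, at least 10.3-fold more, with 18 of the 32 in 1 cell. Ndufaf6 had 0 and 26 counts over 12 cells, and Ndufaf2 had 1 and 26 counts over 1 and 9 cells, with up to 11 and 10 counts in a cell. Ndufaf5 was higher in columns 1 to 6, with 96 and 48 counts.

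Summed per well column, the levels of 4 members did not overlap between the sides, 8.89% of the 45 genes where 6.15% of the 8823 did not overlap. For Ndufa8 the 6 columns of the first side lay between 0.562 and 2.05 counts per 10000 and those of the second between 0 and 0.278. Ndufc1 lay between 0.674 and 5.45 in columns 1 to 6 and between 6.25 and 28.1 in columns 7 to 12. Ndufaf3 lay between 0.210 and 6.04 in the first and at 0 in every column of the second, and Ndufaf1 at 0 in every column of the first and between 0.196 and 2.57 in the second.

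**Figure D5:**
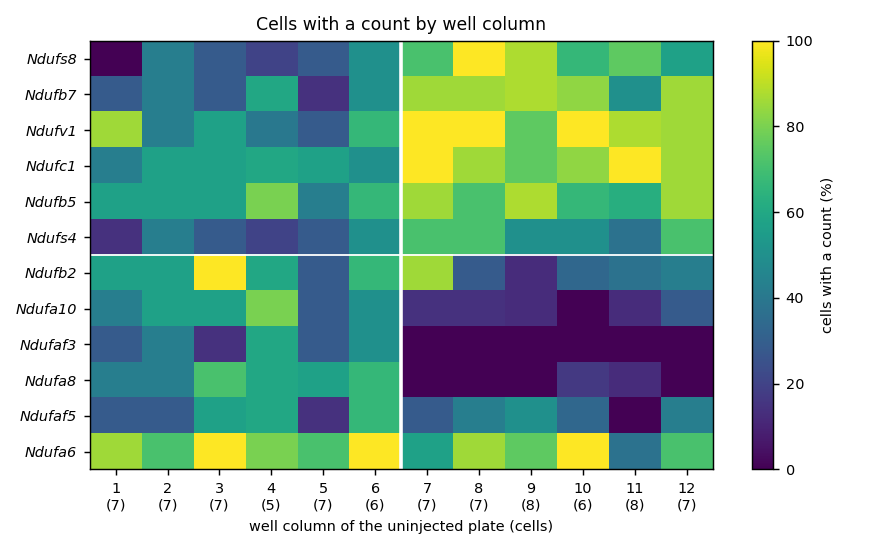
Colour gives the percentage of cells with a count in each well column of the uninjected plate (number of cells in brackets) for the 6 genes with the lowest and the 6 with the highest log-fold between sides, with a white line between columns 6 and 7. Ndufaf3 was at 0% in all of columns 7 to 12 and Ndufs8 was detected in 28.2% of cells on the first side and 76.7% on the second.

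The bases before the start of these 4 genes are shown as a description only. Such genes were 8.89% of members and 6.15% of all genes tested between sides. They were taken from RefSeq promoters on GRCm38.p6 and are read 5′ to 3′ along the gene. The last base printed lies next to the outermost annotated start site. From there each stretch reaches upstream to the first exon of a neighbouring gene or for 150 bases. Capitals mark the ETS motif CCGGAAG.
Ndufa8 (chr2:36049407-36049457, minus strand): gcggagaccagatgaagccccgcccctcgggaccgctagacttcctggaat
Ndufaf3 (chr9:108567437-108567532, minus strand): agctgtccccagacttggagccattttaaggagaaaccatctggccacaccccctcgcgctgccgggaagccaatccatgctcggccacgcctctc
Ndufaf1 (chr2:119662835-119662984, minus strand): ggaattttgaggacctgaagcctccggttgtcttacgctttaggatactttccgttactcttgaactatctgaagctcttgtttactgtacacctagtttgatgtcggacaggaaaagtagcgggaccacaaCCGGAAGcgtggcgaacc
Ndufc1 (chr3:51408989-51409138, minus strand): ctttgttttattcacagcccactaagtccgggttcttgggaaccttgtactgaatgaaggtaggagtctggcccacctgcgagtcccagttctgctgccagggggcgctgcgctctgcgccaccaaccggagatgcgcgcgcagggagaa

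Across the whole RefSeq window of 250 bases before to 50 after the start, 40 of the 45 members had a promoter entry, and both strands were searched for exact matches (the ETS and YY1 motifs can share bases). The NRF1 core GCATGCGC was in 12.5% of these 40 promoters and 3.05% of 27025 promoters of all genes, and the YY1 motif AAGATGGCG in 15% and 1.64%. The ETS motif CCGGAAG, bound by GABP, was in 15% and 9.93%, the photoreceptor motif TAATCC of CRX in 10% and 8.14%, and the ERR motif TCAAGGTCA in 0% and 0.466%. Among the 4 genes shown, the windows held an NRF1 match for Ndufa8, an ETS match for Ndufaf1, a YY1 match for Ndufc1 and none of the 5 motifs for Ndufaf3. No motif was shared by the genes of a side, and any link of a motif to the sides was not tested.

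Counting was not stated to use the strand, and 21 of the 45 members overlap another gene, 17 of them on the opposite strand and 6 on the same strand. Among the members named above, the opposite-strand partners are Tmco6 for Ndufa2, Rbm10 for Ndufb11, Impdh2 for Ndufaf3, Kbtbd4 for Ndufs3, Mrpl36 for Ndufs6, Mrpl47 for Ndufb5, Tfpt for Ndufa3, Vmac for Ndufa11 and Braf for Ndufb2, and others have partners too. These overlaps are of whole gene spans, and whether exons are shared was not examined. Without the strand, reads from a stretch that both genes cover cannot be told apart. Ndufc2, Ndufb8, Ndufb9, Ndufa13, Ndufa10 and Ndufb2 overlap a gene model on the same strand. Ndufs8 (chr19:3908863-3912774, minus strand), Ndufv1 (chr19:4007384-4012806, minus strand), Ndufb7 (chr8:83566671-83571626, plus strand) and Ndufa8 (chr2:36036326-36049406, minus strand) overlap none in the GENCODE vM21 annotation of GRCm38.

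Across the 82 uninjected cells the share of counts on the 45 genes went with that on the nuclear genes of complexes III, IV and V, with Spearman's rho 0.748 (Pearson's r 0.733). Within columns 1 to 6 and 7 to 12 rho was 0.773 and 0.775. With the 7 mitochondrially encoded subunits rho was 0.394 over all cells, 0.136 in columns 1 to 6 and 0.620 in columns 7 to 12, and with the total counts of the cell it was 0.074. These cells shared a library and each pair of shares a denominator, so the values are descriptions, and the difference in rho between sides was not tested.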

How the data were processed

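Single GFP-positive retinal cells were sequenced after 3' and 5' tagging with unique molecular identifiers. Per the labels and methods, the authors aligned reads in CLC Genomics Workbench, removed duplicates by identifier and coordinates, counted with featureCounts on a Gencode M17 annotation and summed 3' and 5' counts. Their genome is written with a human build name; coordinates here are GENCODE vM21 on GRCm38. The deposited table holds whole-number counts per gene for 85 uninjected and 66 treated cells.

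Filters followed the study's methods (3 or more cells per gene, 200 or more genes per cell, mitochondrial share up to 5%) and left 82 and 64 cells of 420 to 98250 counts. Counts were scaled to 10000 per cell and log-folds taken as natural logarithms of means with a pseudocount of 1. Cells are identified by plate and well, and 54 well names were kept on both plates. No batch correction was applied, and doublets were not called, as each well received 1 sorted cell. Differential tests were not run, because each condition was 1 library and cells are not replicates. Intervals are exact Poisson for counts, Clopper-Pearson for shares and exact conditional for ratios. A count of 0 was bounded at 3 counts per library or side. The exact Poisson interval for 0 reaches 3.69 counts, so folds given as at least would be smaller at that end. Python 3.11.15, pandas 2.3.3 and scipy 1.17.1 were used, and the log-fold code was tested on simulated data.

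Members and lists were chosen with earlier results of these data known. Named were core subunits and Ndufaf genes, the 10 members with most counts, the 5 with most among those at 0 in treated cells, members with 3 or more treated counts, the 6 highest and 6 lowest between sides, and up to 3 genes of other lists. Marker lists of other retinal cells are given in the closing section. The values of 1 core subunit are not reported here, although counts and sums over the members include it.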

Additional observations from a re-analysis of the deposited data

Results flagged for a closer look

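For 3 members the log-fold between libraries had opposite signs on the sides of the plate, and none of these differences was tested. Ndufs4 was at 0.17 in wells of columns 1 to 6 and -1.11 in wells of columns 7 to 12, and 11 of its 12 treated counts were in the cell of well D06. Ndufa8 was at -0.72 in columns 1 to 6 and 0.037 in columns 7 to 12, where uninjected cells had 2 counts and treated cells 1. Ndufaf7 was at -0.074 and 0.024, with 7 counts in both libraries together.

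Of the cells left out for more than 5% mitochondrial counts, 3 uninjected cells carried complex I transcripts while 2 treated cells (wells A10 and B03, 1906 and 561 counts) carried none. The 45 genes held 3.34% of the 12813 counts of the uninjected cell in well A03, 3.19% of the 1410 counts in E06 and 0.887% of the 4284 counts in F04, all within the range of the cells kept.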

How the results depend on the processing

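Log-folds below are natural logarithms. In every planned setting 0 members were higher in the treated library beyond 0.3, and between 37 and 43 of the 45 were lower. Among genes in 25% of cells it was 32 of 32, a set that members reached mainly through the uninjected library. Of all genes tested 24% were lower in the main setting, and 44.3% of those in 25% of cells. That share is not given for the other settings, so their counts of members cannot be read against it. Between sides, 9 to 13 members were higher in columns 1 to 6 and 13 to 19 in columns 7 to 12, while the share of all tested genes beyond the limit was 30.5%, and 26.9% with summed counts, 49.1% among genes in 25% of cells and 70.4% with a pseudocount of 0.1. Directions between libraries that turned in members beyond the limit were those of Ndufc2 with summed counts (0.084), Ndufs4 in columns 1 to 6 (0.17) and Ndufa8 in columns 7 to 12 (0.037). Within the limit, Ndufaf6 turned with summed counts (0.005) and Ndufaf7 with summed counts (0.048), median-ratio factors (0.011) and in columns 7 to 12 (0.024). With a pseudocount of 0.1 the members' median between libraries was -2.69, by construction of the smaller pseudocount. Median-ratio size factors moved the median of all genes tested from -0.005 to -0.14, and genes in 25% of cells to -0.16. The members' median between sides, -0.089, was -0.19 with summed counts and -0.22 with median-ratio factors. The median share in treated cells rose from 0% to 0.0199% with cells of at least 500 genes and 0.0158% with cells over the 10th percentile of depth, where fewer shallow cells remained. Assembly factors with other symbols lower beyond the limit numbered 2, and 1 with summed counts, median-ratio factors, at least 500 genes, the depth limit or columns 1 to 6, 4 in columns 7 to 12 and 5 with a pseudocount of 0.1, and the cause was not tested. Without the cell of well D05 the log-fold of Ndufa6 was -1.21 between libraries, against -1.96, and 17 members were higher in columns 7 to 12. The mitochondrially encoded share, 3.92-fold lower, was 10.5-fold lower in columns 1 to 6, 2.45-fold in columns 7 to 12 and 7.59-fold without the treated cell of well D11. No library could be left out. No paired analysis was possible because each condition had 1 library.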

Other observations

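Markers of other retinal cells were rare in both libraries. Bipolar cell markers summed to 0.0210% of uninjected and 0.0216% of treated counts, amacrine cell markers to 0.00476% and 0.00719%, and ganglion cell markers to 0.00826% and 0.0115%. Microglia markers summed to 0.000898% and 0.00336%, retinal pigment epithelium markers to 0.00260% and 0.00527%, and the erythrocyte marker with a row had 3 counts and 0. Their part in the levels of complex I genes was not tested.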
